A study of Mus musculus with 97 samples.

Results

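The genes described here are Actb, Ubb and Ptms, 3 of the 19962 gene rows of the count table. They were chosen by name, as abundant genes of most cells, with their levels over the negative probe in these libraries already known. Those levels are therefore given as a description, with no test. All 3 are protein-coding on the GRCm38.p6 assembly (mm10) in the RefSeq annotation. Actb lies on chromosome 5 from 142903115 to 142907976, Ubb on chromosome 11 from 62551171 to 62553213, and Ptms on chromosome 6 from 124913675 to 124917946.

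Actb encodes beta-actin, which polymerises into the filaments of the cell cortex and, in neurons, of growth cones and dendritic spines. Ubb encodes a polyubiquitin chain that is cut into single ubiquitin units, the tag that marks proteins for the proteasome and for other fates, and it is a stress-responsive source of ubiquitin. Ptms encodes parathymosin, a small, highly acidic protein related to prothymosin alpha that binds linker histone and is found in the nucleus of many cell types. Actb is a common reference gene, so its behaviour between groups matters where other genes are scaled to it, which was not done here.

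The study asked how the human APOE allele and combined chemotherapy act on inflammatory, metabolic and neuroprotective genes in older mice. Brain sections of 8 µm were profiled with the NanoString GeoMx instrument, which releases the sequence tags of hybridised probes from chosen regions of a section by ultraviolet light. The 97 libraries were 49 captured regions labelled cortex and 48 labelled hippocampus. Of the 12 groups, APOE3 DD cortex held 9 libraries and every other group 8. Every mouse carried a human APOE knock-in allele, APOE3 or APOE4, and the design has no group with mouse Apoe. Vehicle mice received a mixture of DMSO and PBS. Both regimens held doxorubicin at a weekly dose of 3 mg/kg. In DD the partner was docetaxel, at 10 mg/kg weekly, and in DC it was cyclophosphamide, at 40 mg/kg weekly. Doses were split over 2 intraperitoneal injections a week for 2 weeks. Which captured regions came from which mouse is not given in the labels. Some regions can share a mouse, in which case every p-value over regions given here is too small and measures the spread between regions.

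The deposited values of a library summed to between 21568 and 1850582 (median 44846). The negative probe row reads background with a control that has no target. Its values are not whole numbers, and the spread of the control behind them was not examined. The negative probe lay between 1.02 and 93.1, and its median was 1.27 in APOE3 and 2.68 in APOE4 libraries. It was 5 or more in 13 libraries, all of them APOE4, of which 6 were DC hippocampus and 4 DC cortex. The labels name 1 batch for all libraries, but each genotype sat on a collection plate of its own (0 genotypes on both), so genotype and plate cannot be told apart. The lowest value was 1 in 94 of 97 libraries, so a value of 1 may stand for no tag. The ratio of the median gene to that probe was 0.936 in cortex and 0.912 in hippocampus, and 97 and 60 genes exceeded 2 times the probe in the median library. Of 59 cell type and region markers found in the table, 0 had a median ratio above 2 in either region. The cortex markers had a list median of 0.923 in cortex and 0.899 in hippocampus, and the hippocampus markers 0.935 and 0.872. These markers were at background in both regions, so they do not bear on the regional labels.

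Actb, Ubb and Ptms were read far above the negative probe in cortex and closer to it in hippocampus. In the median cortex library Actb stood at 4.83 times the probe, Ubb at 4.62 times and Ptms at 3.87 times. In the median hippocampus library the ratios were 1.72, 1.94 and 1.64. The cortex median was thus 2.80 times the hippocampus median for Actb, 2.39 times for Ubb and 2.37 times for Ptms. The deposited values behind these ratios are small, with cortex medians of 11 for Actb, 10 for Ubb and 10 for Ptms, and hippocampus medians of 4, 4 and 3.5. A library thus holds only a few tags of each gene. With 1 subtracted from the gene alone and the probe unchanged, the median ratios were 4.15, 4.11 and 3.35 in cortex. In hippocampus they were 1.10, 1.49 and 1.09. Whether 1 had been added to every count is not settled by the sources used here. If so, the probe may hold it too, and ratios with 1 subtracted from both were not computed. Levels of different probes are not levels of RNA, since probes differ in binding, so the order among the genes is one of probe signal.

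The spread between cortex libraries was wide for each gene. Actb ran from 0.876 to 10.4 times the probe over the 49 cortex libraries, was above the probe in 47 and above 2 times the probe in 42. Ubb ran from 0.821 to 13.8 and was above 2 times the probe in 45. Ptms ran from 0.876 to 12.7 and was above 2 times the probe in 44. All 3 genes were above 2 times the probe in 41 cortex libraries and none of them was in 3. Among all 19962 genes ranked by their median ratio in cortex, Actb was at place 39, Ubb at 41 and Ptms at 48.

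In hippocampus the same genes were above 2 times the probe in fewer libraries. Actb did so in 19 of 48 libraries, Ubb in 24 and Ptms in 17. A value of 1, the lowest in the files, was listed for Actb in 12 hippocampus libraries, for Ubb in 8 and for Ptms in 7, against 2, 1 and 1 in cortex. All 3 genes exceeded 2 times the probe in 6 hippocampus libraries, and none of them did in 13. Their places among all genes were 69 for Actb, 61 for Ubb and 79 for Ptms. Fewer cells in a captured region and less RNA per cell cannot be told apart in these data.

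**Figure D1:**
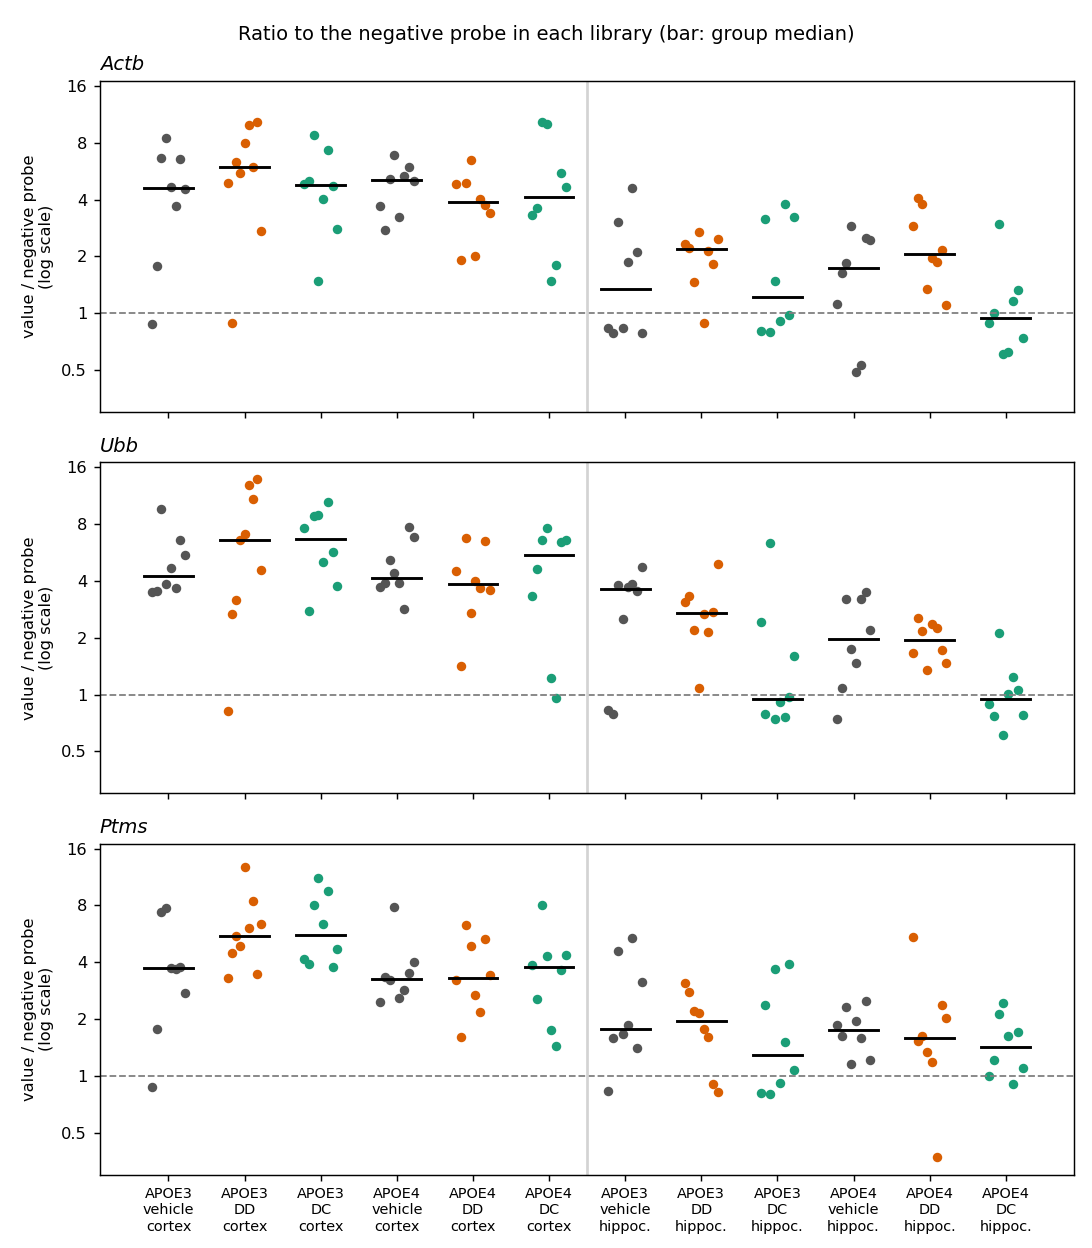
Each point is 1 library, the vertical axis is the value of the gene divided by the negative probe of the same library on a log scale, and the bar is the group median over 8 or 9 libraries. Cortex groups have medians between 3.27 and 6.64 and hippocampus groups between 0.946 and 3.64, with wide overlap of libraries between the groups of a region.

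Across the 6 cortex groups Actb, the beta-actin gene, differed little beside its spread. APOE3 vehicle cortex had a lowest Actb ratio of 0.876, a median of 4.63 and a highest of 8.49. In APOE3 DD cortex these were 0.892, 5.96 and 10.3, and in APOE3 DC cortex 1.49, 4.79 and 8.79. Each APOE3 group thus held at least 1 library at or below 1.49 times the probe and others far above it. APOE4 vehicle cortex ran from 2.78 through a median of 5.09 to 6.87. APOE4 DD cortex ran from 1.91 through 3.88 to 6.50, and APOE4 DC cortex from 1.49 through 4.12 to 10.4. By median, Actb was highest in APOE3 DD and lowest in APOE4 DD, and the ranges of all neighbours in that order overlapped.

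Ubb, the polyubiquitin gene, had its highest cortex medians in the treated APOE3 groups. APOE3 vehicle cortex had a lowest Ubb ratio of 3.50, a median of 4.28 and a highest of 9.59. APOE3 DD cortex had 0.821, 6.60 and 13.8, and APOE3 DC cortex 2.79, 6.64 and 10.5. Every APOE3 vehicle and APOE3 DC library was thus above 2 times the probe, while 1 of the 9 APOE3 DD libraries was not. In APOE4 the values were 2.85, 4.15 and 7.75 for vehicle, 1.41, 3.83 and 6.72 for DD, and 0.960, 5.52 and 7.59 for DC. The Ubb ranges of all neighbours in the order of medians overlapped.

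Ptms, the parathymosin gene, followed the same order at the top, with the treated APOE3 groups ahead. APOE3 vehicle cortex had a lowest Ptms ratio of 0.876, a median of 3.72 and a highest of 7.72. APOE3 DD cortex had 3.28, 5.53 and 12.7, and APOE3 DC cortex 3.79, 5.55 and 11.2. No treated APOE3 cortex library was below 3 times the probe, whereas the lowest APOE3 vehicle library was below the probe itself. In APOE4 the values were 2.47, 3.27 and 7.85 for vehicle, 1.61, 3.32 and 6.27 for DD, and 1.44, 3.76 and 8.00 for DC. The APOE4 medians of Ptms differed by less than the SD of each of these groups (1.74 for vehicle, 1.63 for DD and 2.05 for DC, n = 8 each), and all neighbouring ranges overlapped.

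In hippocampus the medians of the groups lay between 0.946 and 3.64 times the probe, and DC groups were at the low end for each gene. The highest was that of Ubb in APOE3 vehicle, where 6 of 8 libraries were above 2 times the probe. Actb medians were 1.35 in APOE3 vehicle, 2.18 in APOE3 DD and 1.23 in APOE3 DC, and 1.74, 2.06 and 0.947 in the APOE4 groups in the same order. Its highest hippocampus library, at 4.61, was an APOE3 vehicle region. Ubb medians were 3.64, 2.69 and 0.946 in APOE3 vehicle, DD and DC, and 1.97, 1.95 and 0.951 in APOE4. Ubb was listed at 1 in 5 of the 8 APOE3 DC hippocampus libraries. Ptms medians were 1.77, 1.97 and 1.29 in APOE3 and 1.74, 1.58 and 1.42 in APOE4. For each of the genes, the ranges of neighbouring hippocampus groups overlapped.

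The negative probe itself was not the same in these groups. Its median was 1.11 in APOE3 vehicle cortex, 1.45 in DD and 1.41 in DC, and 2.42, 2.92 and 4.26 in the APOE4 cortex groups. It was between 1.26 and 1.33 in the APOE3 hippocampus groups, and 2.03, 2.47 and 10.9 in APOE4 vehicle, DD and DC hippocampus. The library with the highest negative probe, APOE4 DC hippocampus 8 at 93.1, also had the highest deposited values of all 97 libraries for each gene. These were 69 for Actb, 73 for Ubb and 102 for Ptms, which is close to the background of that library. Within APOE4 DC cortex, the 4 libraries with a probe of 5 or more had median ratios of 3.22 for Actb, 3.82 for Ubb and 2.70 for Ptms. The other 4 had 6.86, 5.60 and 4.10. The part of the negative probe in the differences between groups was not tested.

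**Figure D2:**
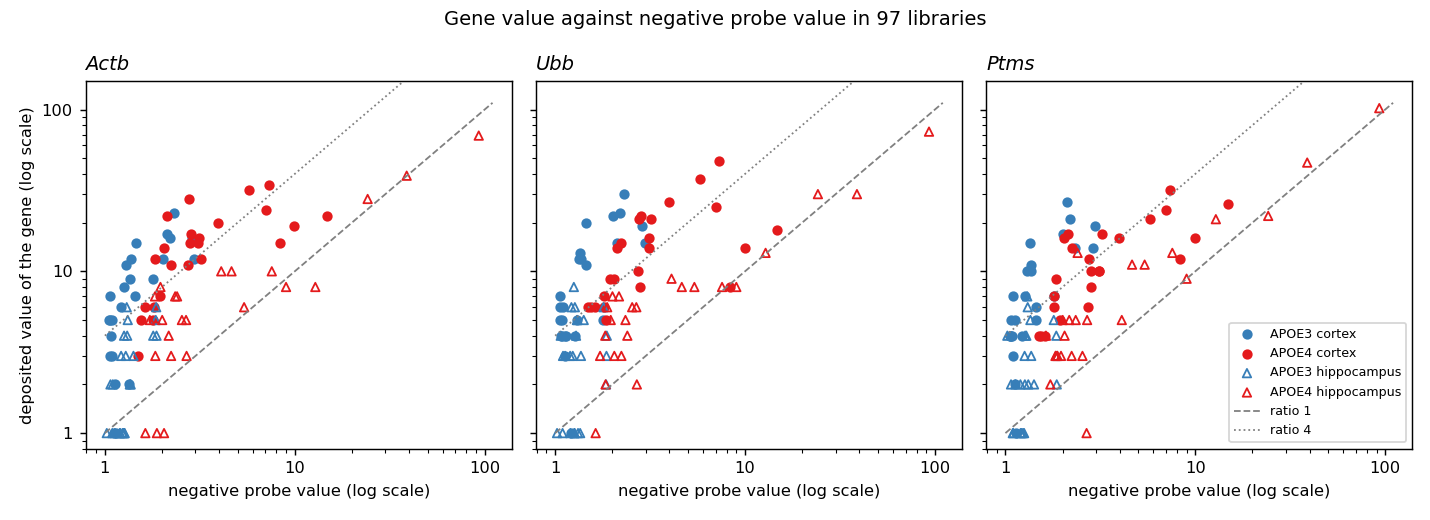
Each point is 1 of 97 libraries, with the negative probe on the horizontal axis and the deposited value of the gene on the vertical axis, both on log scales, and lines at ratios of 1 and 4. Most cortex libraries lie well above the line of ratio 1, and the hippocampus library at a probe of 93.1 lies on or near it for each gene.

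Few of the related genes had a median ratio above 2, but few of all genes did. The small counts are therefore not read as particular to the related genes. Among all 19962 genes, 3538 had a median cortex ratio above 1 and 97 (0.486%) were above 2. Of 36 genes of the actin family and of actin-binding proteins, 12 had a median cortex ratio above 1 and 1 was above 2. That gene was Marcks, a substrate of protein kinase C that crosslinks actin, at 10.1 in cortex and 4.35 in hippocampus, above the ratio of Actb in both regions. The next were Marcksl1 at 1.50 in cortex, Tmsb10 at 1.46, Tpm1 at 1.38 and Tmsb4x at 1.23. Actg1, the gamma-actin gene whose protein is nearly identical to beta-actin, had a ratio of 0.923 in cortex and 0.888 in hippocampus. The median of the list was 0.940 in cortex, beside 0.936 for all genes.

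The ubiquitin list of 39 genes holds the other ubiquitin genes, ubiquitin-like proteins and genes that handle ubiquitin. Of these, 9 had a median cortex ratio above 1 and 0 were above 2, with a list median of 0.938. Over all 19962 genes these counts were 3538 and 97. The highest over all libraries of both regions are named here with their cortex ratios, and other genes of the list can stand higher in cortex alone. Sqstm1, a receptor that carries ubiquitin-tagged cargo to autophagy, was at 1.78, Fau at 1.29, Ube3a, a ubiquitin ligase, at 1.23 and Nedd8 at 1.01. Ubb thus stood above every other gene of this list by probe signal.

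For Ptms, 18 of 24 listed genes of the prothymosin family and of linker histones were in the table. Of these, 3 had a median cortex ratio above 1 and 0 were above 2, with a list median of 0.930. Over all 19962 genes these counts were 3538 and 97. Ptma, the prothymosin alpha gene, stood at 1.03 in cortex and 1.02 in hippocampus. Ncl stood at 1.10, H1f0 at 1.01 and Hmgb2 at 0.947 in cortex. Ptms thus stood apart from its closest relative by probe signal, which is no comparison of RNA amounts.

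Of 34 other genes known to be abundant in most cells, 16 had a median cortex ratio above 1 and 4 were above 2. Both are larger shares than among all 19962 genes, where the counts were 3538 and 97 (0.486%). Calm2, a calmodulin gene, was at 7.30 in cortex and 2.10 in hippocampus. Aldoa and Pkm, enzymes of glycolysis, were at 2.81 and 2.68 in cortex. Hsp90ab1, a chaperone, was at 2.05, and Tpt1 and Fth1 at 1.82 and 1.81. Actb, Ubb and Ptms were higher than all of these in cortex except Calm2. Of the related genes, Marcks and Calm2 alone passed the low-count filter in cortex.

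**Figure D3:**
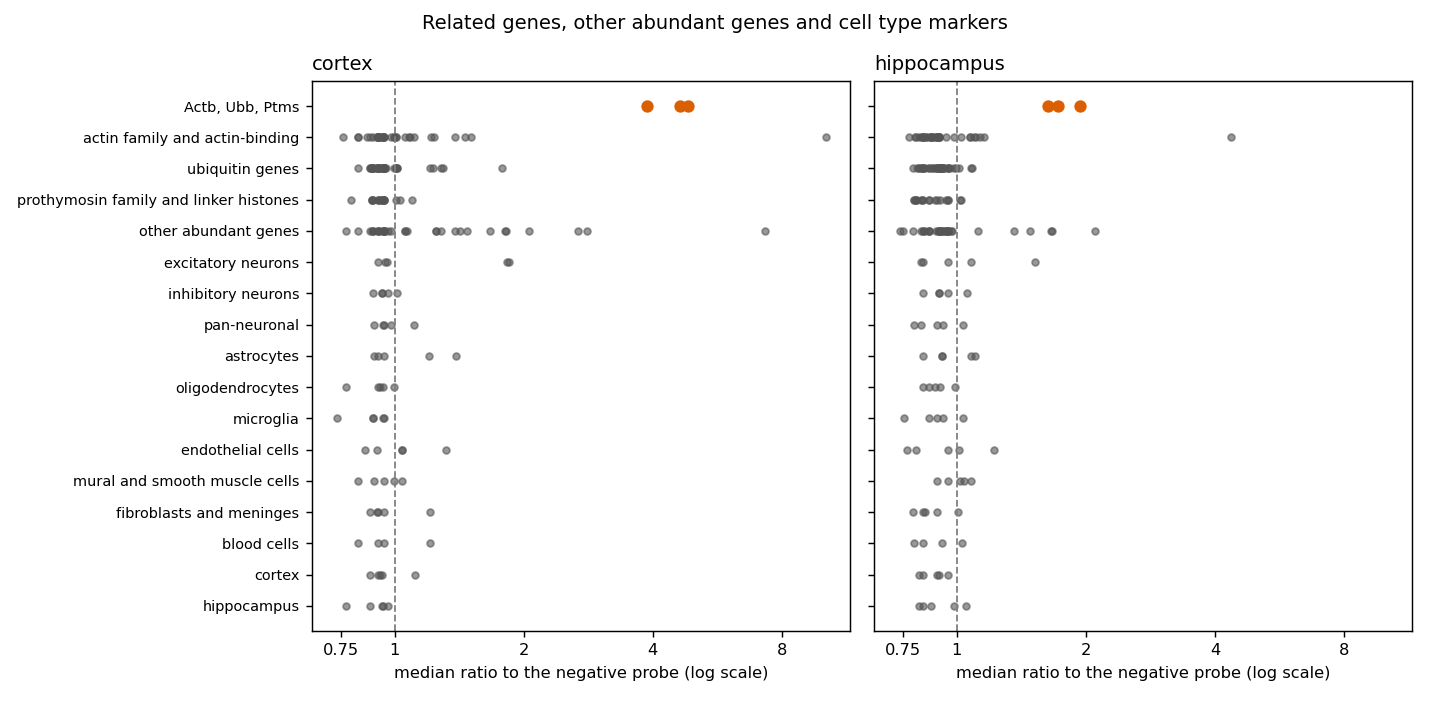
Each point is the median over the libraries of a region of 1 gene's ratio to the negative probe, on a log axis, for Actb, Ubb and Ptms, for the related lists and for the cell type and region markers. The members lie between 3.87 and 4.83 in cortex and between 1.64 and 1.94 in hippocampus, while every marker is below 2.

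Differences between the groups were tested with edgeR's quasi-likelihood test over the genes that passed a low-count filter, with TMM scaling and Benjamini-Hochberg adjustment at a threshold of 0.05. In cortex 57 genes passed, Actb, Ubb and Ptms among them, and in hippocampus 38, which did not include them. Levels in these tests are TMM-scaled log2 CPM, with library sizes taken over the tested genes alone, not ratios to the probe. Of the 33 cortex tests of Actb, Ubb and Ptms, 3 passed, of which 2 were for Ptms, 1 for Ubb and 0 for Actb. Over all 57 tested genes, the share called in these 11 contrasts ran from 0% to 24.6% and is given with the results. The count of 3 is not read as particular to these genes. Each p is over captured regions and is too small where regions share a mouse.

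Ptms rose with DC in APOE3 cortex. Its TMM-scaled level ran from 11.63 through a median of 12.35 to 13.39 in the 8 DC libraries, and from 10.82 through 11.37 to 11.89 in the 8 vehicle libraries. All 8 DC libraries were above the vehicle mean on this scale, although the ranges overlapped. By the ratio to the probe, 6 of 8 were above it. The log2 fold change was 1.02 ± 0.31 (SE), or 2.03-fold, with an adjusted p of 0.0168 by edgeR, beside 12.3% of the 57 genes called in that contrast. The deposited values were low on both sides, from 1 to 10 with a median of 4 in vehicle and from 4 to 21 with a median of 9 in DC. Consecutive libraries of 1 group on a plate form a run of wells, and the 97 libraries lay in 49 runs. Within runs of cortex libraries the levels of the tested genes were correlated at 0.247. Whether a run holds 1 mouse is not given in the labels. Counts summed over runs gave 0.94 with an adjusted p of 0.0595. Scaling to the negative probe, under which the median tested gene moved from 0.10 to -0.23, gave 0.69 with an adjusted p of 0.390. The call was lost under either, and also without the low-count filter (0.83, adjusted p = 0.993), all by edgeR.

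Ubb and Actb had positive DC differences in APOE3 cortex that did not pass. For Ubb the TMM-scaled level was 11.43, 12.48 and 13.08 at the lowest, median and highest in DC, and 11.05, 11.73 and 12.56 in vehicle. The log2 fold change was 0.67 ± 0.29 (SE) with an adjusted p of 0.110 by edgeR, and 6 of 8 DC libraries were above the vehicle mean. Without APOE3 DC cortex 5 it was 0.85 with an adjusted p of 0.0385. Actb gave 0.38 ± 0.30, with an adjusted p of 0.468 by edgeR and 6 of 8 libraries above the vehicle mean.

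In APOE4 cortex the DC differences were near 0. Ptms differed by 0.16 ± 0.25 (SE, log2), Ubb by -0.03 ± 0.23 and Actb by 0.11 ± 0.22, beside 1.75% of the 57 genes called. Of the 8 APOE4 DC libraries, 5 were above the vehicle mean for Ptms, 4 for Ubb and 5 for Actb. The difference of the DC effect between genotypes was tested itself. It was -0.86 ± 0.40 for Ptms (unadjusted p = 0.0359, adjusted p = 0.296 by edgeR), -0.70 ± 0.37 for Ubb with an adjusted p of 0.317, and -0.27 ± 0.37 for Actb with an adjusted p of 0.601. None passed, beside 3.51% of genes called, so a DC effect on Ptms that differs between APOE3 and APOE4 was not shown.

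DD, which replaces cyclophosphamide with docetaxel, gave no call for these genes. In APOE3 cortex the DD differences from vehicle were 0.37 ± 0.30 for Ptms, 0.20 ± 0.28 for Ubb and 0.14 ± 0.28 for Actb (log2, SE), beside 3.51% of genes called. In APOE4 cortex they were 0.00 ± 0.25, -0.27 ± 0.24 and -0.28 ± 0.23, beside 12.3% called. The change of the DD effect with genotype was -0.37 ± 0.40 for Ptms, -0.47 ± 0.36 for Ubb and -0.42 ± 0.36 for Actb. For that contrast edgeR called 0 of 57 genes (0%), with 1 at an unadjusted p under 0.05, and DESeq2 also called 0.

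DD and DC were also compared directly in cortex. In APOE3 the DD level of Ptms was lower than that of DC by a log2 fold change of -0.65 ± 0.26 (SE; unadjusted p = 0.0146, adjusted p = 0.167 by edgeR), and 8 of the 9 DD libraries were below the DC mean. Ubb gave -0.47 ± 0.25 and Actb -0.24 ± 0.26. In that contrast edgeR called 0 of 57 genes (0%), 12 had an unadjusted p under 0.05, and DESeq2 called 1, which was none of these genes. In APOE4 the differences were -0.16 ± 0.24 for Ptms, -0.24 ± 0.22 for Ubb and -0.39 ± 0.21 for Actb. There edgeR and DESeq2 called 0 of 57 genes each (0%), with 0 at an unadjusted p under 0.05.

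**Figure D4:**
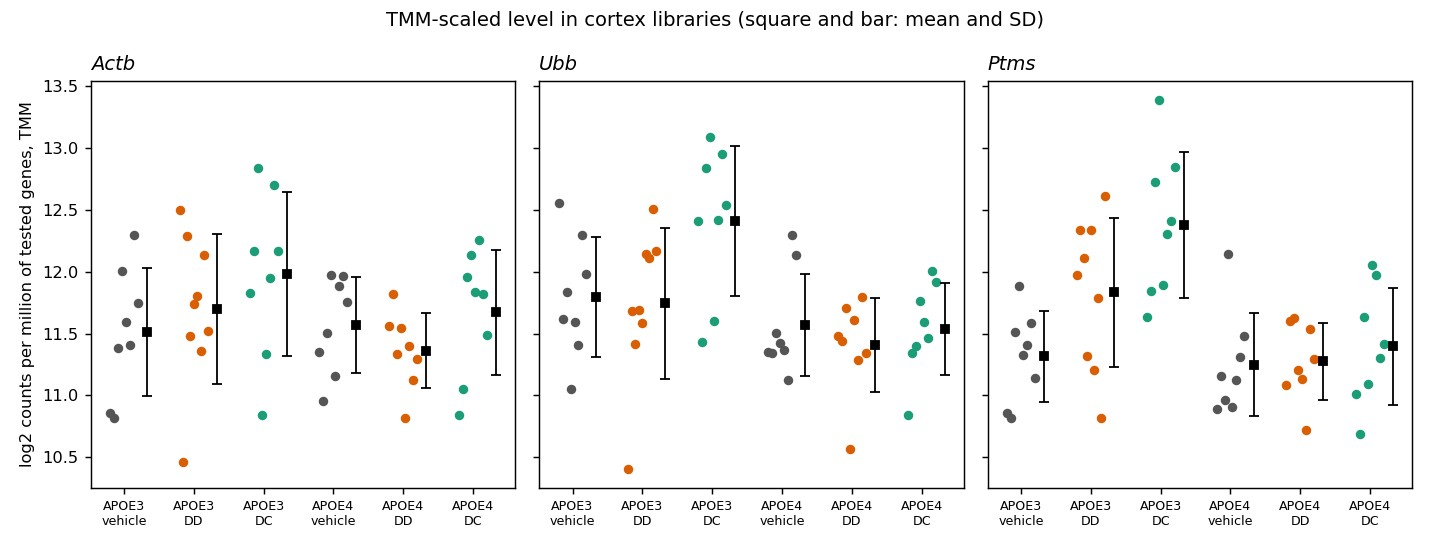
Each point is 1 cortex library, the vertical axis is the TMM-scaled log2 CPM relative to the tested genes, and the square with its bar is the group mean with SD over 8 libraries (9 in APOE3 DD). Ptms in APOE3 DC has a median of 12.35, above the 11.37 of APOE3 vehicle and the 11.36 of APOE4 DC, and the ranges overlap in both comparisons.

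Under DC, Ptms and Ubb were lower in APOE4 cortex than in APOE3 cortex. For Ptms the TMM-scaled level ran from 10.69 through 11.36 to 12.05 in the 8 APOE4 DC libraries, against 11.63, 12.35 and 13.39 in APOE3 DC. All 8 APOE4 libraries were below the APOE3 mean on this scale, although the ranges overlapped. By the ratio to the probe, 7 of 8 were below it. The log2 fold change was -1.01 ± 0.25 (SE), 2.01-fold lower, with an adjusted p of 0.00213 by edgeR, beside 24.6% of the 57 genes called. For Ubb the APOE4 DC levels ran from 10.84 through 11.53 to 12.003, against 11.43, 12.48 and 13.08 in APOE3 DC. Again all 8 were below the APOE3 mean, and 7 of 8 by the ratio to the probe, and the ranges overlapped. The log2 fold change was -0.80 ± 0.24, 1.74-fold lower, with an adjusted p of 0.0107 by edgeR. Actb gave -0.25 ± 0.24, with an adjusted p of 0.495 by edgeR and 6 of 8 libraries below.

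These genotype calls share the APOE3 DC libraries with the Ptms call against vehicle, so they are not separate evidence of a high APOE3 DC level. Scaling to the negative probe gave -0.86 with an adjusted p of 0.0884 for Ptms and -0.55 with 0.265 for Ubb, which ends both calls, and the median tested gene moved from 0.11 to 0.51. Without the low-count filter edgeR gave -0.77 for Ptms and -0.42 for Ubb, each with an adjusted p of 0.997, so neither was called. The plates differ between these groups, and plate and genotype cannot be told apart.

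In the other treatments no genotype difference of these genes passed. Under DD it was -0.52 ± 0.25 for Ptms, with an adjusted p of 0.129 by edgeR, -0.56 ± 0.23 for Ubb with 0.0750, and -0.40 ± 0.23 for Actb with 0.238. All 8 APOE4 DD libraries were below the APOE3 DD mean for Ptms, and 7 of 8 for Ubb and for Actb, beside 21.1% of genes called. Under vehicle the differences were -0.15 ± 0.32 for Ptms, -0.09 ± 0.28 for Ubb and 0.02 ± 0.28 for Actb, also beside 21.1% called.

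Actb was thus called in none of its 11 cortex tests of treatment, regimen, genotype and interaction. Its log2 fold changes there ran from -0.42 to 0.38, with standard errors between 0.21 and 0.37. A p that misses the threshold does not show equal levels of Actb.

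In hippocampus Actb, Ubb and Ptms failed the filter, and only the unfiltered fit over all 19962 rows tested them between the hippocampus groups. It called 2 of 33 tests of these genes, and 7 had an unadjusted p under 0.05. For Ubb in APOE4 DC against APOE4 vehicle it gave a log2 fold change of -1.16 ± 0.29 (SE) and an adjusted p of 0.0178 by edgeR, whereas the TMM-scaled level of the fit over both regions ran the other way, with means of 11.23 in DC and 10.95 in vehicle. The unfiltered contrast called 0.932% of all genes, 186 in number, of which 3 were higher in DC. The ratio of Ubb to the probe ran from 0.612 through 0.951 to 2.13 in DC, and from 0.743 through 1.97 to 3.49 in vehicle, with overlap.

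For Actb in APOE4 DD against APOE4 DC the unfiltered fit gave 1.15 ± 0.26 with an adjusted p of 0.0105 by edgeR, and the TMM-scaled level of the fit over both regions again ran the other way, with means of 10.99 in DD and 11.25 in DC. Of all genes 0.351% were called, 70 in number, of which 66 were higher in DD. The ratio of Actb ran from 1.11 through 2.06 to 4.08 in DD and from 0.612 through 0.947 to 2.99 in DC. Both contrasts turn on APOE4 DC hippocampus, where 6 of 8 libraries had a negative probe of 5 or more, and the part of that background was not tested. With the scales opposed, no direction is given for Ubb or Actb in these contrasts.

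Hippocampus and cortex were set side by side in a fit over all 12 groups and 58 genes. Actb, Ubb and Ptms had failed the filter in hippocampus alone and entered this fit through cortex, where they are high, so their regional differences are a description and no p is given. Over the mean of the 6 combinations of genotype and treatment, the log2 fold change of hippocampus over cortex was -0.38 ± 0.14 (SE) for Actb, -0.34 ± 0.13 for Ubb and -0.20 ± 0.14 for Ptms. The median of the 58 genes was at -0.10.

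The size of the regional difference depended on the scaling. Scaled to the negative probe, the log2 fold changes were -1.44 for Actb, -1.40 for Ubb and -1.23 for Ptms, and the median tested gene moved to -1.12. Relative to the median tested gene, Actb was at -0.28 with TMM and -0.32 with scaling to the probe, Ubb at -0.24 and -0.29, and Ptms at -0.09 and -0.11. Most of the drop in the ratio to the probe was thus that of the median of the 58 tested genes. It was not that of the median of all 19962 genes, which lay at background, at 0.936 in cortex and 0.912 in hippocampus. Scaled to the sum of all gene rows, the cortex median of Actb was 2.91 times the hippocampus median. For Ubb it was 2.47 times and for Ptms 2.37 times. How far the choice of tested genes set their drop was not tested.

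Within single combinations the differences varied, from -0.72 to 0.72 over 18 values. The most negative and the most positive are described first. For Actb in APOE4 vehicle the value was -0.72 ± 0.32 (SE), and its TMM-scaled level ran from 9.66 through 10.85 to 11.53 in hippocampus and from 10.79 through 11.45 to 11.73 in cortex. Of the 8 hippocampus libraries, 6 were below the cortex mean, and the ranges overlapped. For Ptms in APOE4 DC the value was 0.72 ± 0.24, with levels from 10.83 through 11.35 to 12.53 in hippocampus and from 10.59 through 11.17 to 11.88 in cortex. There 4 of 8 hippocampus libraries were above the cortex mean, and the ranges overlapped.

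That Ptms value went the other way on the scale of the probe. Its ratio to the negative probe was lower in APOE4 DC hippocampus, at a median of 1.42 against 3.76 in cortex, with all 8 hippocampus libraries below the cortex mean, and the fit scaled to the probe gave -1.36. Without the libraries of a probe of 5 or more, TMM scaling gave 0.16. It gave 0.51 without APOE4 DC hippocampus 2 and 0.54 without APOE4 DC hippocampus 8.

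The other regional differences lay between that of Actb in APOE4 vehicle and that of Ptms in APOE4 DC. In APOE3 DC they were -0.17 for Actb, -0.71 for Ubb and -0.69 for Ptms. In APOE3 DD they were -0.46, -0.25 and -0.54, and in APOE3 vehicle -0.67, -0.17 and 0.01. In APOE4 DD they were -0.28, -0.55 and -0.33. In APOE4 vehicle Ubb gave -0.48 and Ptms -0.34, and in APOE4 DC Actb gave 0.02 and Ubb 0.13. Among these, the positive values were those of Ptms in APOE3 vehicle and of Actb and Ubb in APOE4 DC. Standard errors were between 0.22 and 0.43.

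**Figure D5:**
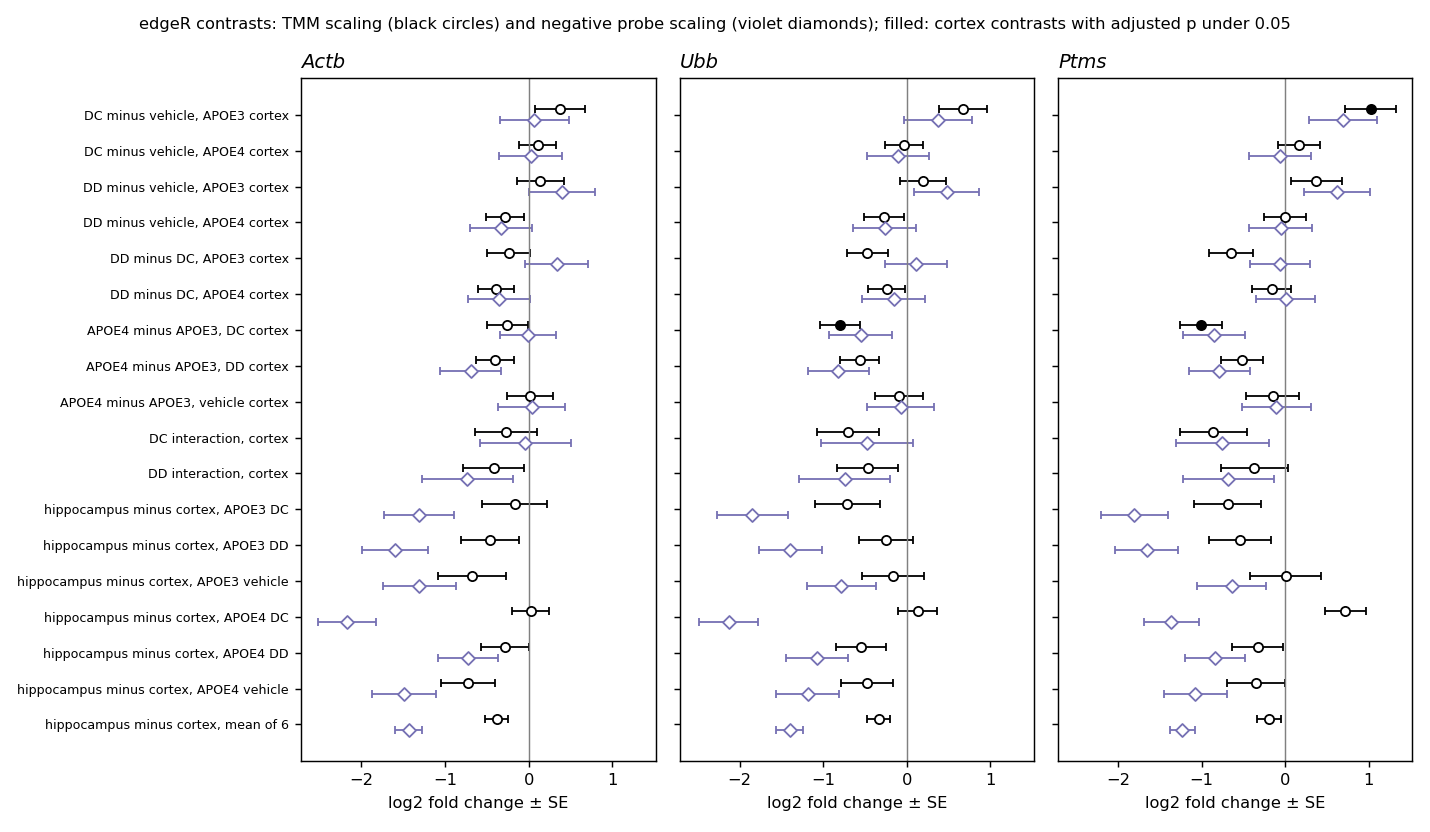
Each panel gives the log2 fold change of 1 gene in 18 contrasts with its SE, for TMM scaling (circles) and for scaling to the negative probe (diamonds), filled in the cortex contrasts where the adjusted p by edgeR is under 0.05. Only Ptms under DC and the APOE4 to APOE3 contrasts of Ptms and Ubb under DC are filled, for TMM scaling alone, while hippocampus minus cortex shifts to the left with scaling to the probe.

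How far the 3 genes varied together from library to library was described after removing group means. Over the 49 cortex libraries, Pearson's r of the TMM-scaled levels was -0.00678 between Actb and Ubb, 0.162 between Actb and Ptms, and 0.0990 between Ubb and Ptms. Over all 97 libraries it was 0.146, 0.279 and 0.0894, and among the genes tested over both regions Ptms was the third most like Actb, after Lig1 at 0.400 and Tubg1 at 0.311. Among the 57 genes tested in cortex, those most like Ubb were Calm2 at 0.549, Lrr1 at 0.477 and Chic2 at 0.454. For Ptms they were Tmed2 at 0.501, Tmem65 at 0.422 and Gm46840 at 0.373. Actb had weaker matches, with Rhov at 0.369, Gm9758 at 0.349 and Rgs19 at 0.298. These correlations describe libraries in which the genes share depth, and most values are a few tags.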

How the data were processed

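Per the labels, tags were sequenced on an Illumina NovaSeq instrument, and mm10 is the build in the submitters' processing notes. The authors deposited expected counts, unscaled and whole in all but 4 rows, which were rounded before modelling. The software that made them is not given in the sources used here. Ratios divide a gene's value by the negative probe of the same library.

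edgeR 4.0.16 (R 4.3.3) was fitted per region to all 6 groups, and to all 12 groups for region contrasts, with filterByExpr (minimum count 10), TMM, the quasi-likelihood test and Benjamini-Hochberg adjustment over all genes tested. Library sizes were summed over the tested genes, and log2 CPM used a prior count of 2. The procedure was run on simulated independent libraries with a common spread, without shared runs of wells or a lowest value of 1. That run does not bear on those limits of the data. Alternatives were DESeq2 1.42.0, other scalings, no filter, runs of wells (limma 3.58.1), and leaving out libraries.

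Named genes were the 3 members, list genes that passed the filter, up to 4 more per list with the highest ratio, and the 3 most correlated genes of each member; Actg1 and Hsp90ab1 were named after their values were seen. Members and lists were chosen with earlier results of these data known. No sequence was needed.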

Additional observations from a re-analysis of the deposited data

Results flagged for a closer look

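Of 36 sets of 8 or 9 ratios to the negative probe, 6 had 1 library far above the rest by Dixon's test. Its rate of about 1 in 20 flagged by chance is for normally distributed values and need not hold for ratios of a few tags. The count of 6 is therefore no measure of how unusual these libraries are. APOE4 DC hippocampus 3 stood apart for Actb, at 2.99 with the next library at 1.32, and for Ubb, at 2.13 with the next at 1.24. Its values were 7 and 5 over a negative probe of 2.34, in a group where 6 of 8 libraries had a probe of 5 or more. Ubb stood at 6.38 in APOE3 DC hippocampus 3, a value of 8, with the next library at 2.42. Ptms stood at 7.85 in APOE4 vehicle cortex 4, a value of 16, with the next at 4.04. It stood at 5.42 in APOE4 DD hippocampus 1, a value of 13, with the next at 2.37. In APOE4 DC cortex 3 Ptms stood at 8.00, a value of 17, with the next at 4.37.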

How the results depend on the processing

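Of 24 alternative values of the 3 cortex calls, 17 kept direction and call, 7 kept the direction only and 0 reversed, and of 240 of the uncalled cortex results 0 were called. The 3 cortex calls held with DESeq2, upper-quartile scaling, the negative probe subtracted, a random block for runs of wells, and without libraries of a probe of 5 or more.

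Without the low-count filter, Ptms gave 0.83 for DC against vehicle in APOE3 cortex and -0.77 for APOE4 against APOE3 under DC, and Ubb -0.42 for the latter, none called. Scaling to the probe gave 0.69, -0.86 and -0.55, none called. Summed runs gave 0.94 for Ptms against vehicle, not called. The regional mean of Ptms, described without a call, was larger with summed runs (-0.58), probe scaling (-1.23), the probe subtracted (-0.84), no filter (-1.18) and without libraries of a probe of 5 or more (-0.34). The regional difference in APOE4 DC became negative for Actb with probe scaling (-2.18), the probe subtracted (-2.06) and no filter (-2.12), for Ubb likewise (-2.13, -2.12 and -2.08), and for Ptms with probe scaling (-1.36) and no filter (-1.30). The cause was not tested.

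Leaving out 1 library gave 0.83 to 1.16 for Ptms against vehicle, -1.14 to -0.82 for Ptms and -0.98 to -0.68 for Ubb between genotypes, all called. Regional means ran from -0.49 to -0.34 for Actb, -0.45 to -0.31 for Ubb and -0.29 to -0.13 for Ptms. No paired analysis was possible because the labels give no replicate numbers. Values of a few tags per library limit every comparison.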
